A study of Mus musculus with 12 samples.

Results

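Integrins and laminins are the receptors and the matrix proteins by which cells hold on to a basement membrane, and the genes of their subunits are described here. Members were chosen by symbol alone, as Itga or Itgb followed by a number or a letter and as Lama, Lamb or Lamc followed by a number. Of 54227 gene symbols, 37 are described: 27 integrin subunits (18 alpha and 9 beta) and 10 laminin chains. The cells were dissociated from livers of C57Bl/6 mice with a Sox9EGFP transgene, a green fluorescent reporter named for Sox9, a transcription factor of bile duct cells. Every population came from transgene carriers that had been fasted for 16 h, so the population without fluorescence, neg, is not free of the transgene. The others were sorted by rising fluorescence into sub (GFPsublow in the labels), low and high. Each library was made from 12000 sorted cells, with 3 libraries per population and 12 in all. The labels give neither the age or sex of the mice, nor the regulatory sequences that drive the reporter, nor whether the 3 libraries of a population came from separate mice. The descriptions carry a suffix that libraries with the same number share across the 4 populations, and the labels do not say whether it names a mouse, so libraries of different populations may share an animal and p-values measure the spread between these libraries, which may be technical. Gates set on fluorescence can each hold several cell types.

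An integrin is a pair of one alpha and one beta subunit that spans the cell membrane, binding matrix outside and, through talin and kindlin, the actin skeleton inside. A laminin is a cross-shaped trimer of an alpha, a beta and a gamma chain that assembles into the sheet to which type IV collagen, nidogen and perlecan attach. In the liver, bile ducts rest on a laminin-rich basement membrane, whereas the sinusoids, lined by fenestrated endothelium and stellate cells, have none that is continuous.

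Reads assigned to genes, recovered from the deposited values as described below, numbered 8775387 to 15535588 per library. In each library 9039 to 12687 genes were above 0. The 2 mitochondrial rRNA genes took 2.10% to 2.78% of the summed value in neg and 4.98% to 6.00% in the other libraries, a difference that moves with each comparison against neg and whose part in the results was not tested. Values are the authors' normalised counts, and the worth of 1 read lay between 0.691 and 1.22 in different libraries. The labelled populations were checked against marker lists through the summed value of 10 genes each. Biliary markers (Epcam, Krt7, Krt19, Sox9 and others) summed to 22.2 to 414 in neg, where 9 of 10 had at most 3 reads in every library, to 23404 to 43915 in sub, 83460.2 to 105036 in low and 76051 to 79220.5 in high. Endothelial markers (Pecam1, Cdh5, Kdr, Stab2 and others) went the other way, at 99989 to 145749, 31878 to 38087, 719 to 2112 and 555 to 928 in the same order. Stellate and mesenchymal markers were at 19406 to 36759 in neg and 27276 to 38093 in sub, and at 818 to 2871 in low and 528 to 1935 in high. Hepatocyte markers summed to 399 to 1077 in neg, 5146 to 7902 in sub, 14730 to 22230 in low and 18578 to 22577 in high. Of these 10 genes, 5 had at most 3 reads in every neg library. Serpinc1 was at 0 in every sub and high library, and Cyp2e1 in every high library. The part of the hepatocyte list in the comparisons against neg was not tested. Bulk libraries cannot tell fewer cells of a type from less RNA per cell, and this holds for each difference given here.

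Of the 37 members, 31 had a mean of at least 10 over the 12 libraries and were tested (22 integrin subunits and 9 laminin chains). The 6 below that mean were Itga2b, Itgad, Itgae, Itgax, Itgb2l and Lama1. Itgad, Itgae, Itgax and Itgb2l were listed at 0 in all 12 libraries, Itga2b reached 100.2 in low 1 and was at 0 elsewhere, and Lama1 reached 34.5 in low 3. At the other end, 12 members had more than 3 reads in every library. The heat map of all members shows 3 broad shapes: genes brighter in neg and sub than in low and high (Itga1, and Itga8 and Lama2, which were at 0 in most low and high libraries), genes brighter in low and high than in neg (Itgb8, dark in all 3 neg libraries, and Itgb4, dark in neg 2 and neg 3), and genes seen throughout (Itgb1, Lama5, Lamb2, Lamc1).

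**Figure D1:**
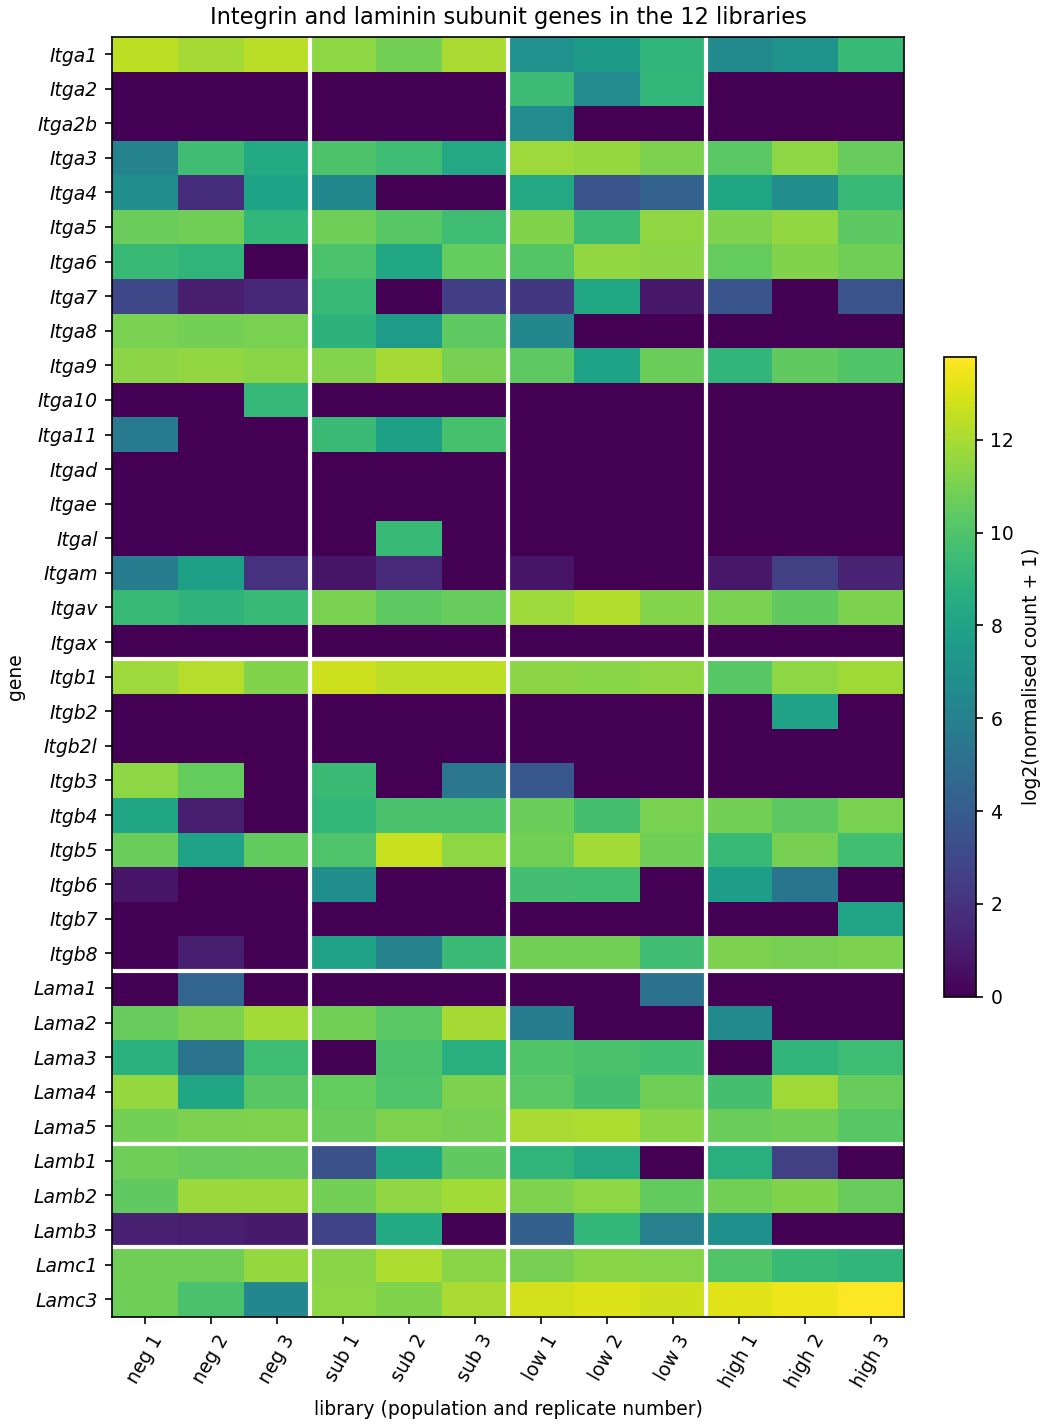
Each row is an integrin or laminin subunit gene and each column a library, coloured by log2(normalised count + 1); white lines divide the populations and the chain families. Itga8 and Lama2 are bright in the neg and sub columns and dark in most low and high columns, Itga1 is dimmer there but above 0 in all 12 columns, Itgb8 is dark in neg and bright in low and high, and 4 rows (Itgad, Itgae, Itgax and Itgb2l) are at 0 throughout.

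Each pair of populations was compared with limma on log2(normalised count + 1) over 16128 genes, with Benjamini-Hochberg adjustment over all of them and a threshold of 0.05; adjusted p-values are from that fit unless edgeR or DESeq2 is named, ± after a log2 fold change is its standard error, and ± after a mean is the SD of 3 libraries. Against neg, the low population had 6 members higher (Itga2, Itga3, Itgav, Itgb4, Itgb8 and Lamc3) and 3 lower (Itga1, Itga8 and Lama2) of the 31 tested, where 2.55% and 2.15% of all genes were called higher and lower. In high against neg, 3 were higher (Itgb4, Itgb8 and Lamc3) and the same 3 genes as in low were lower, beside 2.44% and 2.25% of all genes. In sub against neg, 1 member was higher (Itgb8) and 0 were lower, beside 1.04% and 0.149%. These 3 comparisons share the neg libraries. Itga1 was the single member called between EGFP-positive populations, lower in high than in sub, where 0.118% of all genes were called higher and 0.868% lower. Low against sub gave no call among the members, where 0.13% of all genes were called higher and 0.614% lower; 8 members had an unadjusted p under 0.05 (25.8%, beside 10.2% of all genes). In that contrast edgeR on the recovered reads called 1 member and 179 of all genes, and DESeq2 4 members and 1593 of all genes. High against low gave none either, where 0% of all genes were called; 3 members had an unadjusted p under 0.05 (9.68%, beside 4.24% of all genes). There edgeR called 0 members and 34 of all genes, and DESeq2 3 members and 646 of all genes. Leaving out 1 library moved these counts to 3 in sub against neg (without neg 1, with Itga11 and Itgb4 added), to 4 in low against neg (without low 2 or low 3), to at most 3 in low against sub and 4 in high against sub (both without low 1), to 0 in high against sub (without sub 1, sub 2, sub 3 or high 2) and to 1 in high against low (without low 1 or low 3). A fit of only the 2 populations compared kept no member in sub, Itgav and Itgb8 in low and Itga8 and Itgb8 in high against neg; without the variance trend 5 members passed in low, and the calls of Itga1, Itga3, Itgav and Lamc3 in low and of Lamc3 in high were lost. With DESeq2 2 members passed in sub, 13 in low and 10 in high, where 1698, 2352 and 2257 of all genes passed, and with edgeR 5 members and 602 of all genes in low. A moderated F test over the 4 populations called 8 members, beside 4.23% of all genes, and 5 without sub 1, sub 3, low 1 or low 2.

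**Figure D2:**
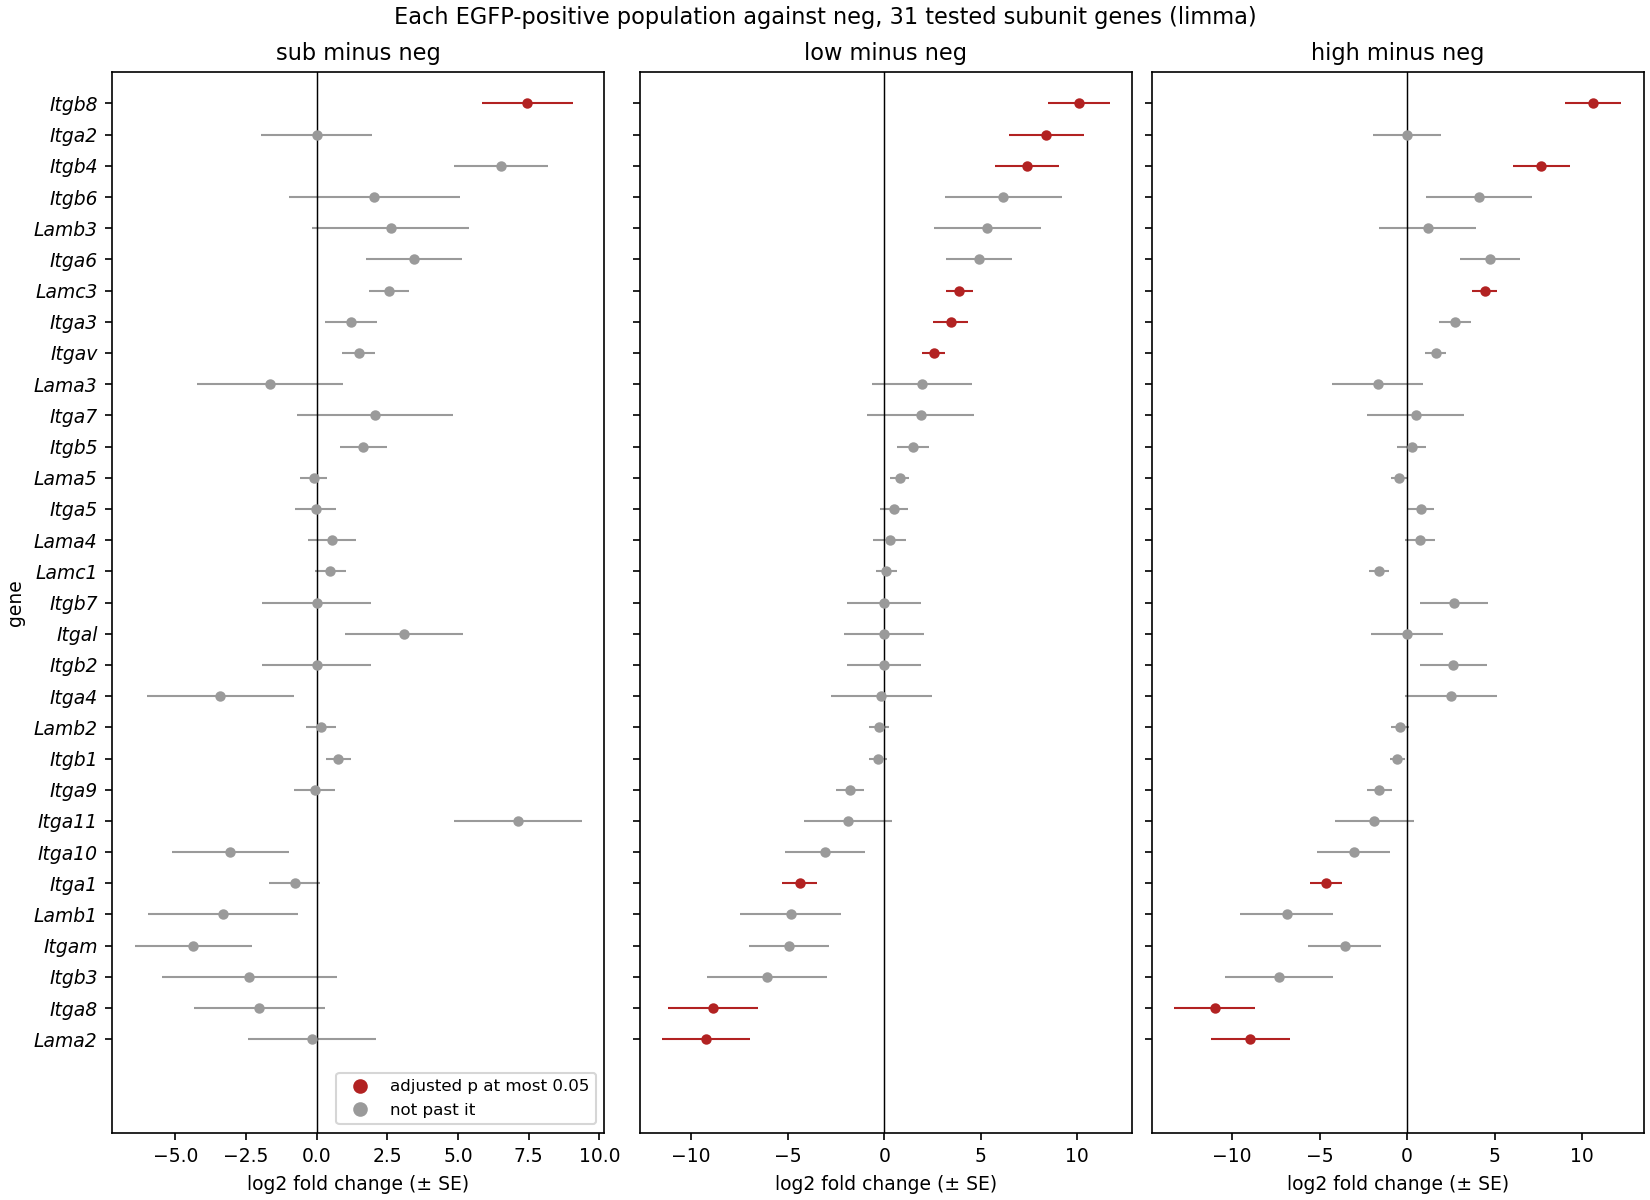
Log2 fold changes (points) and standard errors (lines) of the 31 tested subunit genes for sub, low and high, each against neg; red marks an adjusted p of at most 0.05. Itgb8 is red and to the right of 0 in all 3 panels, Itga1, Itga8 and Lama2 are red and to the left of 0 for low and high, and long lines belong to genes whose libraries include zeros.

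Among the laminin chains, Lamc3 (chr2:31887291-31946539, plus strand, 28 exons; coordinates here are GENCODE M21 on GRCm38, with the exons of the longest coding transcript) encodes gamma 3 and was higher in low and high. It was counted at 1731, 922 and 84 in neg, 2759.9, 2349 and 4262 in sub, 7370.3, 8557 and 7089 in low and 8876, 10958 and 14196 in high. The sub, low and high libraries all lay above the neg libraries, and no low or high library overlapped sub. Lamc3 was 8.41-fold higher in low than in neg (log2 fold change 3.89 ± 0.72, adjusted p 0.00276) and 12.4-fold higher in high (log2 fold change 4.44 ± 0.72, adjusted p 0.000712), with edgeR adjusted p-values of 0.000245 and 1.99e-05. Sub against neg did not pass (log2 fold change 2.56 ± 0.72, adjusted p 0.112). The neg libraries were far apart, and without neg 3, the lowest, the call in low still passed. The log2 fold change in low was 4.77 without neg 1 and 2.60 without neg 3, and in high 5.31 without neg 1 and 3.14 without neg 3. The call in low was lost when any low library was left out, with adjusted p-values of 0.0717 (low 1), 0.0627 (low 2) and 0.0676 (low 3) by the library left out. Summed biliary markers were also higher in the low and high libraries, and their part in the result was not tested.

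Lamc1 (chr1:153218922-153332786, minus strand, 28 exons), the gamma 1 chain of most basement membranes, took another course. Its normalised counts were 1812, 1786 and 3164 in neg, 2553, 4347 and 2559 in sub, 1980.1, 2613 and 2496 in low and 1051, 639.7 and 533 in high. All 3 high libraries lay below every other library. None of its contrasts passed in limma; the nearest was high against sub (4.25-fold lower, log2 fold change -2.10 ± 0.56, adjusted p 0.0876), and high against low had an adjusted p of 1 with a 3.19-fold lower mean. DESeq2 called it lower in high against sub (adjusted p 0.000707), neg (0.0131) and low (0.0265), and edgeR in none of the 3 (0.274, 0.371 and 0.751). Because the chains differ in length, levels were also taken per kb of the longest coding transcript: Lamc1 stood at 296 ± 103 in neg and 414 ± 136 in sub, against 310.0 ± 44.2 in low and 97.3 ± 35.9 in high (normalised count per kb, mean ± SD, n = 3), and Lamc3 at 155 ± 140.2, 532 ± 172, 1307 ± 133 and 1932 ± 457. On that scale all high libraries had more Lamc3 than Lamc1, and the same held in low.

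Among the alpha chains, Lama2 (chr10:26980036-27619758, minus strand, 65 exons), the alpha 2 chain known from the basement membrane of muscle, was called lower in both bright gates. Single libraries stood at 1527, 2121 and 3738 in neg, 1888, 1217 and 3872 in sub, 54.2, 0 and 0 in low and 95.2, 0 and 0 in high. Every neg and sub library was above every low and high library, so these pairs of groups did not overlap. Lama2 was 136-fold lower in low than in neg (log2 fold change -9.24 ± 2.26, adjusted p 0.0219) and 77.6-fold lower in high (log2 fold change -8.97 ± 2.26, adjusted p 0.0259), with edgeR adjusted p-values of 0.0195 and 0.0369. Against sub the differences missed the threshold, with adjusted p-values of 0.0716 for low and 0.0736 for high in limma (DESeq2 0.00698 and 0.0242). Leaving out 1 library, named in parentheses, ended the call in low against neg with adjusted p-values of 0.0708 (neg 1), 0.0816 (neg 2), 0.0937 (neg 3), 0.0875 (low 2) and 0.0935 (low 3), and that in high with 0.0776 (neg 1), 0.0877 (neg 2), 0.104 (neg 3), 0.0501 (sub 1), 0.0503 (sub 3), 0.109 (high 2) and 0.106 (high 3). The log2 fold change in low was -11.17 without low 1, -8.27 without low 2 and -8.27 without low 3, and in high -11.17 without high 1, -7.87 without high 2 and -7.87 without high 3. Summed stellate and endothelial markers were also low in the low and high libraries, as given above, and their part in the result was not tested.

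Lama5, Lama4 and Lama3 did not pass in any contrast in limma. Lama5 (chr2:180176373-180225859, minus strand, 79 exons), the alpha 5 chain common to most adult epithelial and endothelial basement membranes, was counted at 1892, 2157 and 2209.8 in neg, 1611, 2222 and 2029.8 in sub, 4215, 4338 and 2620.2 in low and 1648, 1810.1 and 1205 in high. The low libraries lay above all others, 1.79-fold higher than neg in the mean (log2 fold change 0.80 ± 0.48, adjusted p 0.454) and 2.4-fold higher than high (adjusted p 1). Lama4 (chr10:38965515-39110188, plus strand, 38 exons), the alpha 4 chain of vessels, was counted at 3172, 270.3 and 1187 in neg, 1464, 1003 and 2128 in sub, 1216, 832 and 1794 in low and 854, 3569.7 and 1523 in high. Its groups overlapped in every pair, and neg alone spanned most of the range. Lama3, which encodes the alpha 3 chain of epithelial laminins, had a mean of 402 ± 341 in neg and 456 ± 474 in sub, against 919 ± 138 in low and 414 ± 376 in high, with a 0 in sub 1 and in high 1 (smallest adjusted p 0.69, low against sub).

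The beta chains gave no call in limma. Lamb2 (chr9:108479736-108490530, plus strand, 33 exons), the beta 2 chain, was counted at 1394, 3317 and 3346 in neg, 1949, 2931 and 3793 in sub, 2203, 2744 and 1439 in low and 1821, 2339.7 and 1516 in high. Its populations overlapped throughout, and its smallest adjusted p was 0.724, for high against sub. Lamb1 (beta 1) had a mean of 1602 ± 82.9 in neg and 553 ± 711 in sub, against 282 ± 263 in low and 135 ± 229.9 in high. Every neg library lay above every other library, with adjusted p-values of 0.387 for low and 0.168 for high against neg. Lamb3 (beta 3, of epithelial laminins) had at most 2 reads in each neg library, and means of 118 ± 199.9 in sub, 216 ± 304 in low and 40.1 ± 69.4 in high (smallest adjusted p 0.358, low against neg, where DESeq2 gave 0.0424 and edgeR 0.400). Lamb3 shares part of its span with Hsd11b1 on the opposite strand, and whether strand was used in counting is not given in the sources used here.

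**Figure D3:**
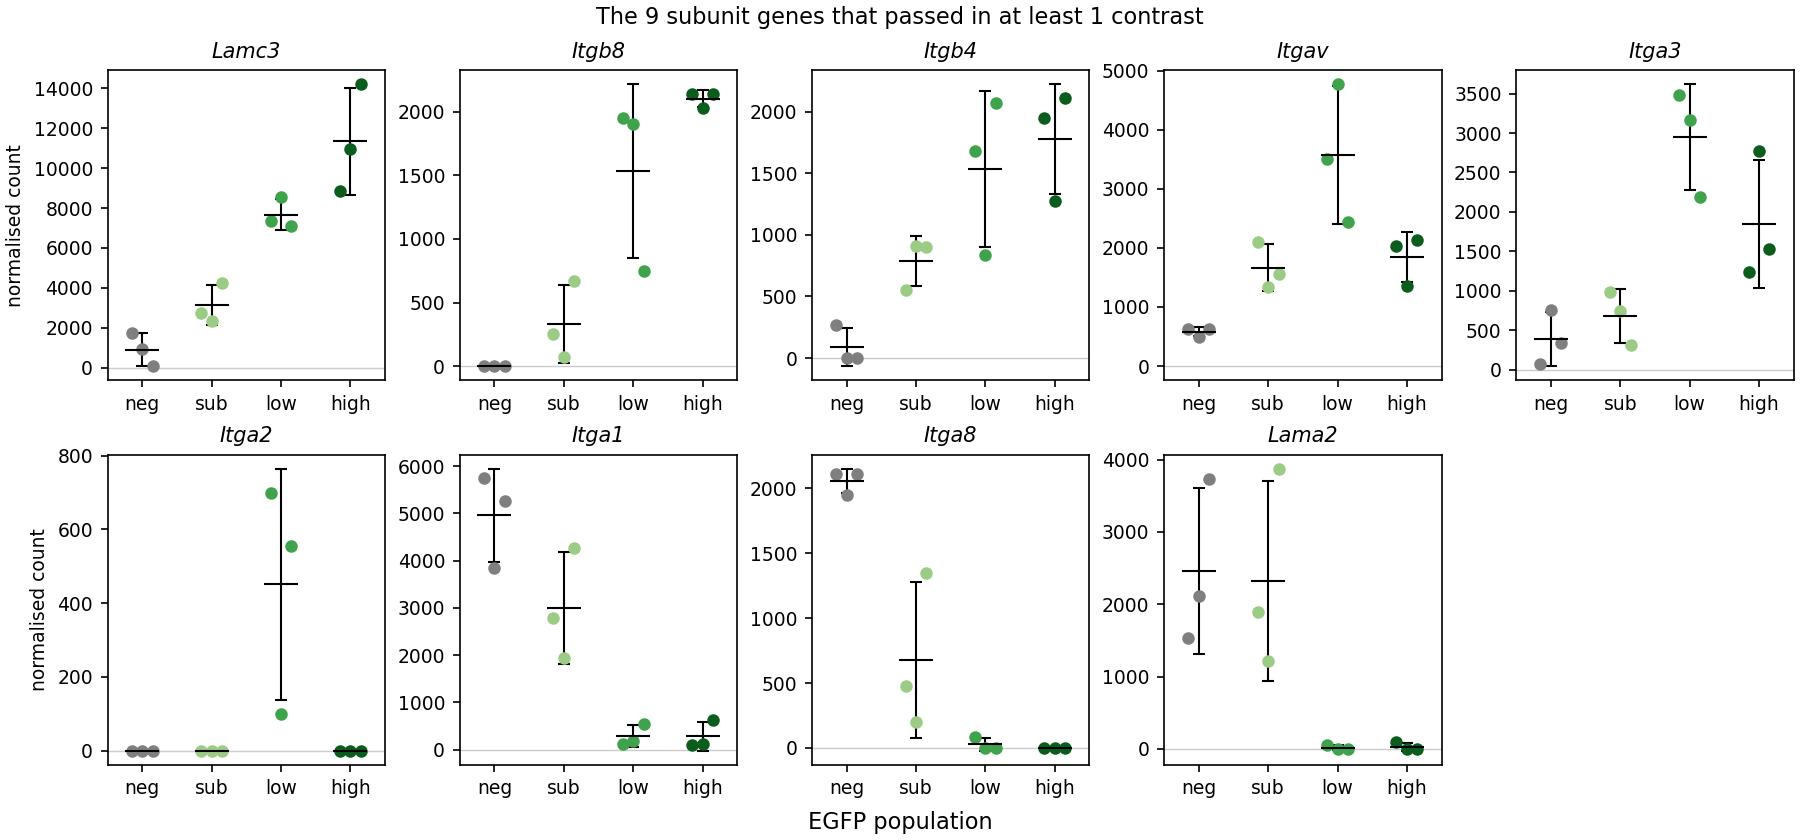
Normalised counts of the 9 subunit genes that passed in at least 1 contrast, by population; points are the 3 libraries, horizontal bars the mean and vertical lines 1 SD. Itgb8 has at most 1 read in each neg library, Itga2 is above 0 in the low libraries and at 0 in the other 9, Itga8 and Lama2 lie at or near 0 in low and high, and Itga1 lies there below its neg and sub libraries.

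The laminin-binding integrins are alpha 3, alpha 6 and alpha 7 paired with beta 1, and alpha 6 paired with beta 4. Itgb4 (chr11:115974709-116008412, plus strand, 40 exons) encodes beta 4, which anchors keratin filaments through plectin. It was counted at 271, 1.22 and 0 in neg, 556, 907 and 904 in sub, 1685, 836 and 2075 in low and 1951, 1274 and 2111 in high. Every sub, low and high library lay above the neg libraries, of which neg 1 alone had more than 1 read. Itgb4 was 16.9-fold higher in low than in neg (log2 fold change 7.40 ± 1.66, adjusted p 0.012) and 19.6-fold higher in high (log2 fold change 7.68 ± 1.66, adjusted p 0.00908). In sub the mean was 8.7-fold above neg at an adjusted p of 0.0651, and this passed without neg 1. Leaving out 1 neg library, the log2 fold change in low was 9.91 without neg 1, 6.44 without neg 2 and 5.86 without neg 3, and in high 10.19 without neg 1, 6.72 without neg 2 and 6.14 without neg 3. DESeq2 gave the smallest log2 fold changes of the 24 alternatives, 4.08 for low and 4.29 for high against neg. edgeR did not call Itgb4 in low (adjusted p 0.131) or in high (0.102). In limma, leaving out 1 library ended the call for low with adjusted p-values of 0.0956 (neg 2), 0.0843 (neg 3), 0.0906 (low 1), 0.0600 (low 2), 0.0969 (low 3), 0.0534 (high 1) and 0.0537 (high 2), and for high with 0.0796 (neg 2), 0.0681 (neg 3), 0.0824 (high 1), 0.0697 (high 2) and 0.0797 (high 3).

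Itga3 (chr11:95044474-95076801, minus strand, 26 exons) encodes alpha 3, an epithelial receptor for laminins with alpha 3 or alpha 5 chains. Its normalised counts were 70.5, 749.7 and 340.0 in neg, 988, 739.6 and 316 in sub, 3476, 3170.0 and 2189 in low and 1240.0, 2774 and 1529 in high. All low libraries lay above all neg and sub libraries, and the high libraries lay above them too. Itga3 was 7.62-fold higher in low than in neg (log2 fold change 3.46 ± 0.91, adjusted p 0.0333; edgeR adjusted p 0.0548), while high against neg did not pass in limma (4.78-fold higher in the mean, log2 fold change 2.72 ± 0.91, adjusted p 0.101; DESeq2 adjusted p 0.0375). The difference between low and high was itself not past the threshold (adjusted p 1). Its log2 fold change in low was 2.51 without neg 1 and 4.21 without neg 2. The call in low was lost in 8 of the 12 fits that left out a library, with adjusted p-values of 0.0674 (neg 1), 0.0711 (neg 3), 0.117 (low 1), 0.11 (low 2), 0.0851 (low 3), 0.0599 (high 1), 0.0601 (high 2) and 0.0595 (high 3).

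Itga6 (chr2:71745616-71858416, plus strand, 26 exons) encodes alpha 6, the partner of beta 4. Single libraries stood at 634, 511 and 0 in neg, 933, 301 and 1462 in sub, 1082, 3016 and 2725 in low and 1475, 2281 and 1796 in high. Low and high libraries all lay above the neg libraries, and neg 3 was at 0, which enlarges the log2 fold changes against neg. Neither low against neg (5.96-fold higher in the mean, log2 fold change 4.91 ± 1.70, adjusted p 0.122) nor high against neg (adjusted p 0.135) passed. Itga7, the alpha 7 receptor of muscle, had at most 632, in sub 1, and its populations overlapped (smallest adjusted p 0.785).

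Alpha v pairs with beta 1, 3, 5, 6 or 8 and binds ligands with an RGD motif, among them osteopontin, vitronectin, fibronectin and the latent form of TGF-beta. Itgb8 (chr12:119158022-119238802, minus strand, 14 exons) encodes beta 8, which pairs with alpha v alone and presents latent TGF-beta for activation. It was counted at 0, 1.22 and 0 in neg, 248, 71 and 670.3 in sub, 1953, 1904 and 749 in low and 2143, 2028 and 2139 in high. A single read in neg 2 was the whole signal of neg, sub lay between neg and the brighter gates, and the 3 high libraries were close together, with an SD of 65.2 around a mean of 2104. Against 3 reads in neg, the sub mean of Itgb8 was at least 89.9-fold higher (log2 fold change 7.46 ± 1.60, adjusted p 0.0216), the low mean at least 418-fold higher (log2 fold change 10.08 ± 1.60, adjusted p 0.000611) and the high mean at least 573-fold higher (log2 fold change 10.65 ± 1.60, adjusted p 0.000313). The calls in low and high held in all 24 alternative fits; the call in sub held in all except the fit of only those 6 libraries (adjusted p 0.652). The log2 fold change in sub was 8.29 without sub 2 and 6.68 without sub 3. High exceeded sub 6.38-fold without overlap, with an adjusted p of 0.505 in limma and 0.0299 in DESeq2.

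Itgav (chr2:83724397-83806916, plus strand, 30 exons), the shared alpha v partner, was counted at 627, 493 and 633 in neg, 2101, 1336 and 1562 in sub, 3499, 4767 and 2431 in low and 2039, 1352 and 2139 in high. The neg libraries lay below all others and the low libraries above all others. Itgav was 6.1-fold higher in low than in neg (log2 fold change 2.56 ± 0.59, adjusted p 0.0145; edgeR adjusted p 0.0294), and this held without any 1 library but not without the variance trend (adjusted p 0.181). In sub it was 2.85-fold higher in the mean (log2 fold change 1.49 ± 0.59, adjusted p 0.378; DESeq2 adjusted p 0.0139) and in high 3.15-fold higher (log2 fold change 1.64 ± 0.59, adjusted p 0.135; DESeq2 adjusted p 0.00412), neither of them past the threshold in limma, and high against low had an adjusted p of 1.

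The other beta partners of alpha v did not pass in limma. Itgb5 (chr16:33829665-33949338, plus strand, 15 exons), beta 5, a receptor for vitronectin, was counted at 1666, 242 and 1425 in neg, 1006, 6328 and 2769.9 in sub, 1841, 3764 and 1817 in low and 627, 1972 and 787 in high. It overlapped between all pairs except low and neg (smallest adjusted p 0.408). Itgb6, the epithelial beta 6, had at most 1 read in a neg library and a mean of 533 ± 462 in low, where low 1 and low 2 were at 813 and 787 and low 3 at 0 (adjusted p against neg 0.327 in limma, 0.335 in edgeR and 0.00816 in DESeq2). Itgb3, the beta 3 of platelets and vessels, was at 2788, 1489.6 and 0 in neg, at 664, 0 and 43.9 in sub, at 12.6 in low 1 and at 0 in the other low and in all high libraries. Its neg libraries ran from the highest value of the gene to 0, and high against neg had an adjusted p of 0.224 in limma, 0.0277 in edgeR and 0.000374 in DESeq2. Of 8 platelet markers, 7, Pf4 and Ppbp among them, were at 0 in every neg library. Their sums were 0 to 16.6 in neg, 0 to 495 in sub, 0 to 281 in low and 0 to 236 in high. Endothelial marker sums were highest in neg, as given above. The part of either list in the Itgb3 values was not tested.

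Alpha 1, alpha 2, alpha 10 and alpha 11 pair with beta 1 and are the collagen receptors. Itga1 (chr13:114953096-115101964, minus strand, 29 exons), the alpha 1 receptor that favours type IV collagen, was counted at 5757, 3854 and 5257 in neg, 2797, 1934 and 4267 in sub, 127, 184 and 549.8 in low and 91.7, 130.4 and 637 in high. Every neg and sub library lay above every low and high library. Itga1 was 17.3-fold lower in low than in neg (log2 fold change -4.38 ± 0.91, adjusted p 0.00732) and 17.3-fold lower in high (log2 fold change -4.62 ± 0.91, adjusted p 0.00474), and both calls held when any library was left out, with a log2 fold change of -4.99 without low 3 in low and -5.47 without high 3 in high. It was also lower in high than in sub, 10.5-fold (log2 fold change -3.85 ± 0.91, adjusted p 0.0498; edgeR adjusted p 0.0221), a call close to the threshold; it ended without some single libraries, with adjusted p-values of 0.0741 (neg 1), 0.0694 (neg 2), 0.0762 (neg 3), 0.102 (sub 1), 0.099 (sub 2), 0.15 (sub 3), 0.0534 (low 2), 0.14 (high 1) and 0.139 (high 2). The log2 fold change in high against sub was -4.69 without high 3. Low against sub was 10.5-fold lower with an adjusted p of 0.0794 in limma and 0.0264 in edgeR. Part of Itga1 overlaps the annotated genes Gm49395 and Pelo on the same strand. Endothelial and stellate marker sums were low in the same libraries, and their part in the result was not tested.

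Itga2 (chr13:114833081-114932100, minus strand, 30 exons), the alpha 2 receptor that favours fibrillar collagen, is the neighbour of Itga1, on the same strand with 21.0 kb between them and no protein-coding gene in between. Its value was 0 in all 3 neg libraries, 0 in all 3 sub libraries, 699.9, 98.6 and 554 in low and 0 in all 3 high libraries. The 3 low libraries were above 0 and the other 9 were at 0. Itga2 was at least 123-fold higher in low than in neg, taking 3 reads as the floor (log2 fold change 8.40 ± 1.96, adjusted p 0.016), while edgeR gave an adjusted p of 0.306 on the recovered reads. Without low 2 the log2 fold change was 9.28. Low against sub had an adjusted p of 0.0523 (at least 131-fold higher), and passed in 15 of the 24 alternative fits, with DESeq2 at 0.013 and edgeR at 0.465. High against low had 0.648 (at least 149-fold lower), with DESeq2 at 0.0264. The neighbours were called in opposite directions in low against neg, Itga1 lower and Itga2 higher. Itga11, the alpha 11 receptor of fibroblasts, was at 671, 228 and 869 in sub, at 49.1 in neg 1 and at 0 elsewhere. Sub lay above all other libraries, its adjusted p was 0.200 against neg, 0.0753 for low and 0.0693 for high (DESeq2 0.382, 0.00336 and 0.00399), and the F test over the 4 populations passed narrowly (adjusted p 0.04996). Itga10, the alpha 10 receptor of cartilage, was above 0 only in neg 3, at 580.5.

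Itga8 (chr2:12106632-12301922, minus strand, 30 exons) encodes alpha 8, an RGD receptor of stellate and other mesenchymal cells that binds nephronectin. Single libraries stood at 2111, 1947 and 2108 in neg, 478, 199 and 1349 in sub, 82.4, 0 and 0 in low and 0 in all 3 high libraries. The neg libraries were close together and above all others, sub lay between, and 5 of the 6 low and high libraries were at 0. Itga8 was at least 678-fold lower in high than in neg against a floor of 3 reads (log2 fold change -11.01 ± 2.32, adjusted p 0.00772), a call that held in all 24 alternative fits. In low it was 74.9-fold lower (log2 fold change -8.88 ± 2.32, adjusted p 0.0323; edgeR adjusted p 0.0949). The log2 fold change in low was -11.01 without low 1, -7.81 without low 2 and -7.81 without low 3. Leaving out 1 library ended the call in low, with adjusted p-values of 0.0638 (neg 1), 0.0648 (neg 2), 0.0669 (neg 3), 0.0762 (low 2) and 0.0757 (low 3). Sub against neg did not pass (3.04-fold lower in the mean, adjusted p 0.784), and high against sub was at least 223-fold lower (adjusted p 0.0775, edgeR 0.00446). The stellate marker list, which overlapped between neg and sub, was lower in every low and high library, with Pdgfrb, Lrat, Col3a1 and Acta2 at 0 in high. Endothelial marker sums were lower in sub than in neg, and lower still in low and high. The part of either list in the result was not tested.

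Upstream windows were matched by symbol for 24 of the 37 members. Printed here are the 250 bases before the start of 4 members that passed against neg: Itga1 and Itga2, the neighbours called in opposite directions, and Itga8 and Itgav, a receptor lower and a receptor higher in low. They are RefSeq windows on GRCm38.p6, 5′ to 3′ on the gene's strand, at chr13:115101965-115102214, minus strand (Itga1), chr13:114932101-114932350, minus strand (Itga2), chr2:12301945-12302194, minus strand (Itga8) and chr2:83724147-83724396, plus strand (Itgav). Capitals mark a match to the SOX core ACAANG, the TEAD core GGAATG or the AP-1 site TGANTCA on either strand.
Itga1: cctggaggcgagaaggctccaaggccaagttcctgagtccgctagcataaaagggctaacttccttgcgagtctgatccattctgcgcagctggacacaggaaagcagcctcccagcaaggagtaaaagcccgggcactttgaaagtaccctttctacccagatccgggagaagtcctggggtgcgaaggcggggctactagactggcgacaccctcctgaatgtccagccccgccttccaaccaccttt
Itga2: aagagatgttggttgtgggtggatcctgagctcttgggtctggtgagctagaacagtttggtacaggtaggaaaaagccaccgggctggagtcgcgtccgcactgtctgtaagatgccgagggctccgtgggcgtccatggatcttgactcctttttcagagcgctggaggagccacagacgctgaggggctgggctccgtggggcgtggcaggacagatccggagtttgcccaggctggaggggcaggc
Itga8: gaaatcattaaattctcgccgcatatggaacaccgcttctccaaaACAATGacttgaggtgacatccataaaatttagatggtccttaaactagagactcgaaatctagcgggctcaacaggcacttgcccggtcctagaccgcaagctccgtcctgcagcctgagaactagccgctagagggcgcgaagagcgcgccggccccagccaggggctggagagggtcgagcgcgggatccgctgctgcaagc
Itgav: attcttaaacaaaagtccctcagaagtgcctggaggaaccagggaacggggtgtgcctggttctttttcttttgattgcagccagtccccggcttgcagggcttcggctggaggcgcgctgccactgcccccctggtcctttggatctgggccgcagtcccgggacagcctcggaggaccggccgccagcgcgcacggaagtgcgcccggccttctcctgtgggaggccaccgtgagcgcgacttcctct
Of the 4, Itga8 alone had a match, a SOX core. The bases that follow its window were not found in a GENCODE M21 transcript of the gene, unlike those of Itga1, Itga2 and Itgav. Over the 27 windows of members (some have more than 1 start), 8 held the SOX letters, 3 the TEAD letters, 1 the AP-1 letters, 1 an HNF1 half-site (GTTAAT) and 0 a TATA box (TATAAA). Over 32851 windows of the same length before all genes, the shares were 36.3%, 12.6%, 6.75%, 6.43% and 12.4% in that order. A match describes the letters only.

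Itga5 (chr15:103344286-103366763, minus strand, 30 exons), alpha 5, the fibronectin receptor, was counted at 1624, 1756 and 565 in neg, 1741, 1193 and 722 in sub, 2341, 709 and 2892 in low and 2218, 2988 and 1256 in high. All pairs of populations overlapped and no contrast passed (smallest adjusted p 0.636, high against neg). Itga9 (chr9:118606690-118901003, plus strand, 28 exons), alpha 9, which binds tenascin and osteopontin, was counted at 2721, 3040.3 and 2557 in neg, 2411, 3857 and 1995 in sub, 1320.3, 251 and 1670.1 in low and 541, 1376 and 1041 in high. The low and high libraries all lay below the neg and sub libraries, by 2.57-fold in low and 2.81-fold in high against neg, with adjusted p-values of 0.22 and 0.276. Itgb1 (chr8:128685654-128733200, plus strand, 16 exons), the beta 1 partner of most alpha subunits, was counted at 3436, 4963 and 2336 in neg, 6745, 5383 and 5441 in sub, 2694, 2628 and 2881 in low and 1205, 2841 and 3661 in high. The sub libraries lay above all others, 1.64-fold higher than neg in the mean (log2 fold change 0.77 ± 0.44, adjusted p 0.639) and 2.28-fold higher than high (adjusted p 0.213), and the remaining populations overlapped. Itga4, the alpha 4 receptor for Vcam1, had means from 28.7 in sub to 337 in high with wide spreads (smallest adjusted p 0.433).

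The leukocyte integrins were at or near 0 in most libraries. Itgal, Itgb2 and Itgb7 were each above 0 in a single library, at 625 in sub 2, 244 in high 2 and 261 in high 3. Itgam, the alpha M of macrophages and neutrophils, was at 55.3, 227 and 2.9 in neg and did not exceed 5.05 in any other library (adjusted p 0.229 in limma and 0.0169 in DESeq2, low against neg). The beta 2 chain that alpha L, alpha M, alpha X and alpha D need for their pair was at 0 in 11 of 12 libraries. Of the leukocyte markers, Ptprc was at 0 in all neg and sub libraries, Cd3e in all 12, and the summed lymphocyte list reached 1108 in neg and 432 in high. The Kupffer cell list summed to 0 to 576 in neg and 519 to 1526 in high, with C1qa at 0 in every library.

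Levels of different members were compared per kb of the longest coding transcript. Among alpha subunits the leading genes were Itga1 at 452 ± 90, Itga9 at 395 ± 35 and Itga8 at 354 ± 16.2 in neg (normalised count per kb, mean ± SD, n = 3). In sub they were Itga9 at 392 ± 139, Itga5 at 278 ± 116 and Itga1 at 273 ± 108, which lay within each other's spread. In low, Itga3 stood at 606 ± 138, Itga6 at 528 ± 242, Itgav at 505 ± 166 and Itga5 at 452 ± 259, again within each other's spread. In high, Itga5 stood at 492 ± 198, Itga6 at 429 ± 94.2 and Itga3 at 380.1 ± 168, which overlapped as well. Among beta subunits, Itgb1 stood at 938 ± 346 in neg and 1535 ± 202 in sub, against 717 ± 34.4 in low and 673 ± 328 in high. Itgb5 came next or alongside at 339 ± 232, 1026 ± 826, 754 ± 340.4 and 344 ± 224 in that order. Itgb4 at 287 ± 71.6 and Itgb8 at 250.3 ± 7.76 in high overlapped Itgb5 there. Among laminin chains of high, Lamc3 at 1932 ± 457 exceeded the leading alpha chain, Lama4 at 328 ± 234, and the leading beta chain, Lamb2 at 336 ± 74, with no overlap between its libraries and theirs. In neg the leading chains were closer, with Lamb2 at 477 ± 199, Lamc1 at 296 ± 103, Lamb1 at 277 ± 14.3, Lama2 at 256 ± 119 and Lama4 at 255 ± 245.

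**Figure D4:**
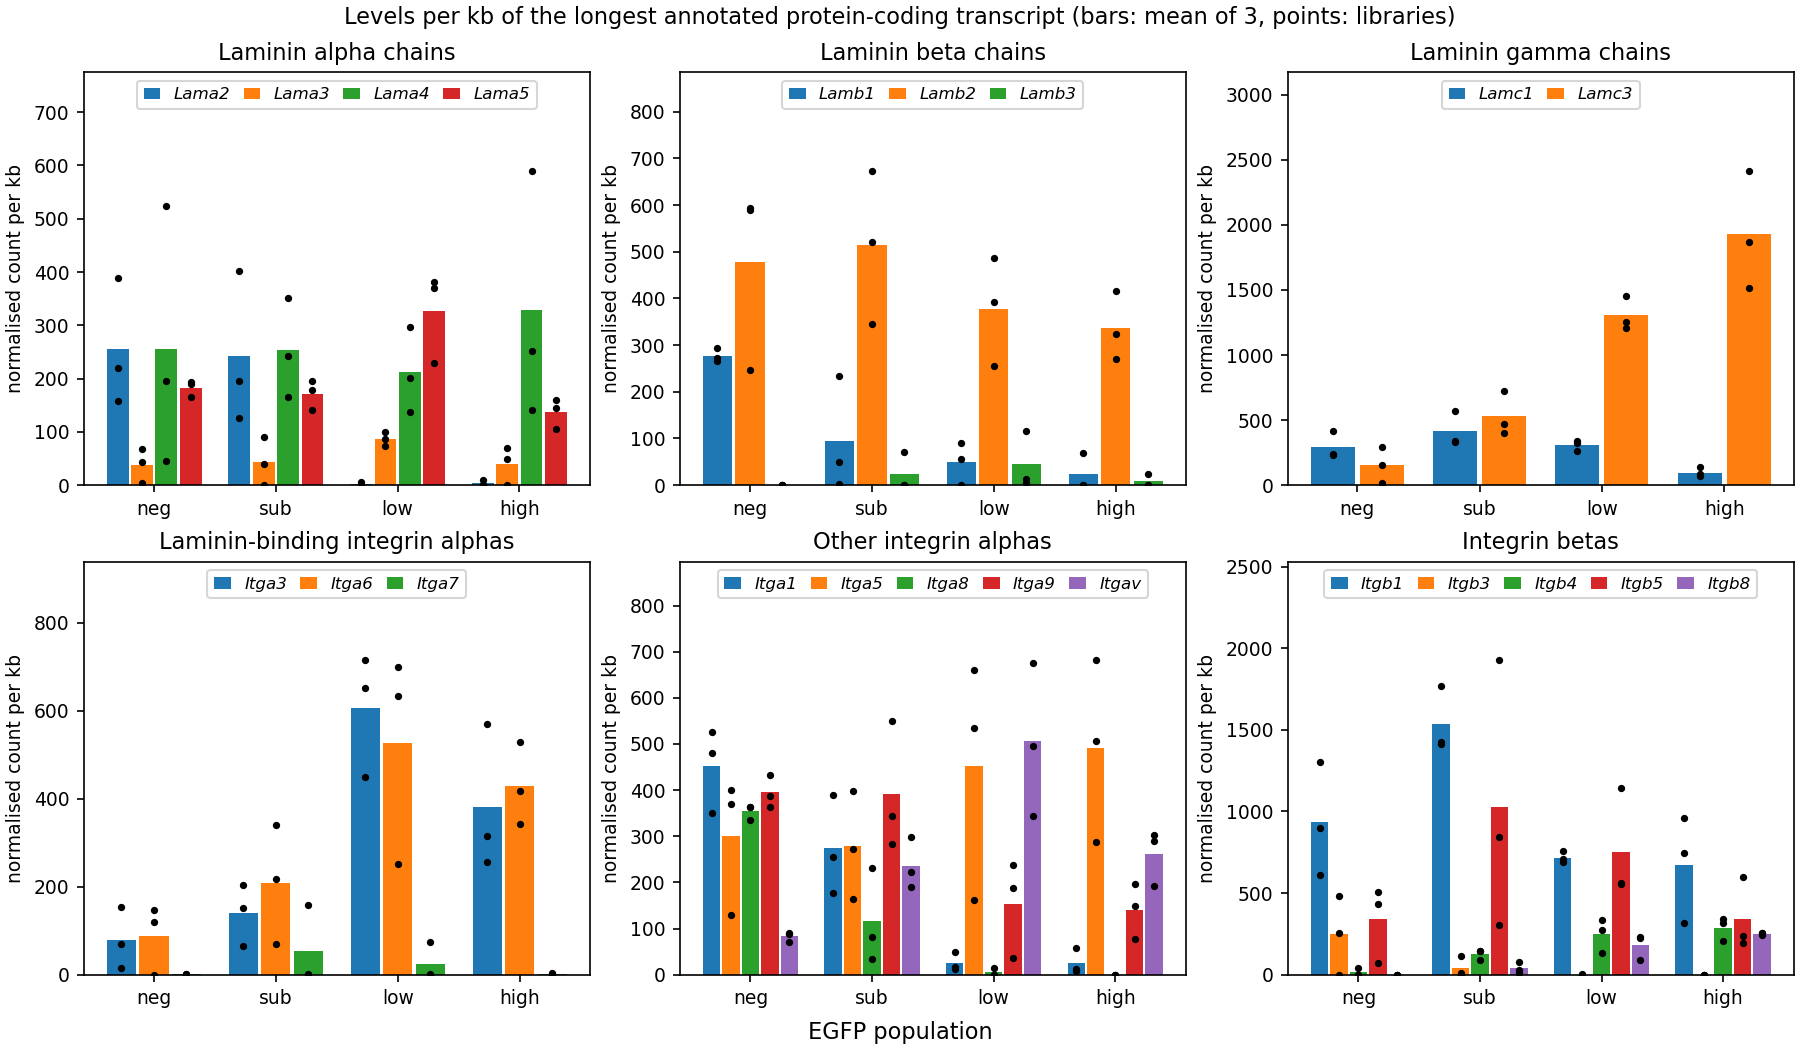
Normalised counts per kb of the longest annotated coding transcript for laminin chains (top) and integrin subunits (bottom) in the 4 populations; bars are means of 3 libraries and points the libraries. In the gamma panel Lamc3 stands above Lamc1 in low and high, and in the laminin-binding panel Itga3 and Itga6 are tallest in low.

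Genes that work with these subunits were read from the same fit. Of 15 other integrin ligands, 13 were tested; 3 passed as higher in sub, low and high against neg (Spp1, Fn1 and Ccn1), and 1 was lower in low (Tgfb1) and 1 in high (Lrrc32). Of all genes, 1.04% were called higher and 0.149% lower in sub, 2.55% and 2.15% in low, and 2.44% and 2.25% in high. Spp1, which encodes osteopontin, a ligand of alpha v and alpha 9 integrins, was counted at 0 in all 3 neg libraries, 13719, 8527 and 7705 in sub, 29882, 32021 and 43641 in low and 27254, 28249 and 36557 in high. Against 3 reads in neg, its sub mean was at least 2721-fold higher (adjusted p 6.18e-12) and its low mean at least 9589-fold higher (adjusted p 5.57e-13). Fn1, fibronectin, was counted at 3931, 3754 and 1871 in neg, 12638, 10695 and 14597 in sub, 17422, 12659.7 and 12172 in low and 21161, 19213 and 18491 in high. It was 3.97-fold higher in sub than in neg (log2 fold change 2.05 ± 0.25, adjusted p 6.25e-05) and 6.16-fold higher in high (log2 fold change 2.70 ± 0.25, adjusted p 8.35e-07). Ccn1, a matricellular ligand of alpha v integrins, was 3.62-fold higher in sub, 4.67-fold in low and 8.93-fold in high, with means of 2611 ± 961 in neg and 23324 ± 574 in high. It was also 2.47-fold higher in high than in sub (adjusted p 0.0243), a call lost without neg 1, neg 3, sub 1, sub 2, sub 3, low 1, high 1, high 2 or high 3 (adjusted p up to 0.176). Tgfb1, which encodes a form of the TGF-beta that beta 8 presents, was counted at 704, 3707 and 3365 in neg, 1797, 1342 and 1374 in sub, 159.6, 0 and 0 in low and 0, 12.1 and 163 in high, 48.7-fold lower in low than in neg (log2 fold change -8.57 ± 2.28, adjusted p 0.0351; edgeR adjusted p 0.0972), a call lost without neg 1, neg 2, neg 3, sub 1, sub 2, sub 3, low 2, low 3 or high 2 (adjusted p up to 0.16). Low 1 was the only low library with Tgfb1 above 0, so the size of the 48.7-fold depends on it. The call was kept without low 1 (adjusted p 0.0139). In high against neg Tgfb1 had an adjusted p of 0.0762. Lrrc32, which tethers latent TGF-beta at the cell surface, was counted at 1196, 526 and 1427 in neg, 1083, 324 and 712 in sub, 87.6, 0 and 0 in low and 0 in all 3 high libraries and was at least 346-fold lower in high (log2 fold change -9.92 ± 2.35, adjusted p 0.0176), while low against neg had an adjusted p of 0.0674. In a fit of only the 2 populations compared, Spp1 passed against neg in low and high (adjusted p 0.00404 and 0.00259), and Fn1, Ccn1 and Lrrc32 passed in high (0.0326, 0.02 and 0.0374). That fit ended the calls in sub of Spp1 (0.0746), Fn1 (0.435) and Ccn1 (0.523), those in low of Fn1 (0.074), Ccn1 (0.0811) and Tgfb1 (0.198), and that of Ccn1 in high against sub (0.13). Endothelial and stellate marker sums were low in the low and high libraries, where Tgfb1 and Lrrc32 were lower, and their part in both results was not tested. Spp1 is itself 1 of the 10 biliary markers, whose sums were also higher in sub, low and high than in neg. Its counts of 29882 to 43641 in low are a large part of those sums, which were 83460 to 105036 there. The part of the biliary markers in the calls of Spp1, Fn1 and Ccn1 was not tested.

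Of 21 basement membrane partners, 20 were tested. Against neg, 2 were higher and 4 lower in low, and 2 were higher and 7 lower in high, beside 2.55% of all genes called higher and 2.15% lower in low, and 2.44% and 2.25% in high. The list had a median log2 fold change of -1.54 in low (0 over all genes) and -1.58 in high (0.13 over all genes). It was written with earlier results of these data known, so these medians only describe the listed genes. Col4a1, a chain of the type IV collagen network, was counted at 13654, 13533 and 17173 in neg, 7748, 8498 and 11596 in sub, 1275, 3889 and 1398 in low and 1075, 1799 and 1054 in high. It was 6.76-fold lower in low than in neg (log2 fold change -2.95 ± 0.41, adjusted p 0.000151), 11.3-fold lower in high (log2 fold change -3.53 ± 0.41, adjusted p 1.73e-05), and lower in both than in sub (adjusted p 0.0132 and 0.00137). Its call in low against sub was lost without neg 1, sub 1, sub 2, sub 3, low 1 or low 3 (adjusted p up to 0.109). Col4a2, its partner chain, had means of 7421 ± 1745 in neg and 6349 ± 1019.9 in sub, against 1755 ± 719 in low and 1724 ± 359 in high, and passed in the same 4 contrasts. In low against sub that call was lost without neg 2, neg 3, sub 1, sub 2, sub 3, low 2, low 3, high 1 or high 2 (adjusted p up to 0.111), and in high against sub it was lost without neg 2, neg 3, sub 1, sub 2, sub 3, high 1, high 2 or high 3 (adjusted p up to 0.108). Hspg2, perlecan, was counted at 24899.6, 26419.5 and 20659 in neg, 7000.4, 3675 and 9696 in sub, 6334, 5191 and 7399 in low and 7089.6, 6068 and 6986 in high, and was already 3.53-fold lower in sub than in neg (log2 fold change -1.92 ± 0.28, adjusted p 0.000406). Sparc, a matricellular collagen binder, was 13.9-fold lower in high than in neg (log2 fold change -4.58 ± 0.97, adjusted p 0.00773), a call lost without neg 1 or neg 2 (adjusted p up to 0.0698). Its high libraries stood at 432, 327 and 20.4, so the log2 fold change depends on high 3. It was also lower in high than in sub (adjusted p 0.0378), a call kept in 2 of the 12 fits that left out a library (adjusted p up to 0.188). The 2 called higher against neg were Col18a1, the collagen that yields endostatin, and Fras1, an epithelial basement membrane protein. Col18a1 was counted at 685, 641 and 769.8 in neg, 3805, 3529 and 3376 in sub, 3017, 5815 and 3797 in low and 3427, 2027 and 4859.5 in high, 5.11-fold higher in sub (log2 fold change 2.35 ± 0.48, adjusted p 0.015), 6.03-fold in low and 4.92-fold in high. Fras1 had means of 41.2 ± 59.3 in neg and 2145 ± 1715 in low (adjusted p 0.00988), a call lost without low 1 or low 3 (adjusted p up to 0.0833). Its call in high against neg (adjusted p 0.0169) was lost without neg 1, high 1, high 2 or high 3 (adjusted p up to 0.0935). The other type IV collagen chains did not pass: Col4a5 had means of 169.6 ± 294 in neg and 1325 ± 559 in low (log2 fold change 7.29, adjusted p 0.127), and Col4a3, Col4a4 and Col4a6 had adjusted p-values of 0.551, 0.992 and 0.968 in low against neg, with log2 fold changes of 2.66, -0.41 and 0.98. Frem2, a partner of Fras1, had a log2 fold change of 7.80 in low (adjusted p 0.0973). In a fit of only the 2 populations compared, Col4a1 and Col4a2 passed against neg in high (adjusted p 0.0128 and 0.034), Hspg2 in low and high (0.0315 and 0.0175) and Col18a1 in low (0.0408). That fit ended the calls against neg of Hspg2 (0.579) and Col18a1 (0.241) in sub, of Col4a1 (0.0728), Col4a2 (0.108) and Fras1 (0.185) in low and of Col18a1 (0.0624), Sparc (0.159) and Fras1 (0.155) in high. It also ended those of Col4a1, Col4a2 and Sparc against sub (0.0917 to 0.369). Endothelial marker sums were lower in sub (31878 to 38087) than in neg (99989 to 145749), as Hspg2 was. Both endothelial and stellate marker sums were low in the low and high libraries, where Col4a1, Col4a2 and Hspg2 were called lower. The part of either list in these results was not tested.

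Of 13 other laminin receptors, tetraspanins and hemidesmosome genes, 12 were tested. Against neg, Sdc4 and Plec were higher and Cd151 lower in low, and Sdc4 was higher in high, where 2.55% and 2.15% of all genes in low and 2.44% and 2.25% in high were called higher and lower. Sdc4, the syndecan that acts beside integrins at focal adhesions, was counted at 1883, 686 and 1462 in neg, 3948, 2649 and 2988 in sub, 7073, 7314 and 6763 in low and 7900.4, 6365 and 8478 in high, 5.25-fold higher in low (log2 fold change 2.51 ± 0.39, adjusted p 0.000536) and 5.64-fold higher in high. Plec, plectin, which joins beta 4 to keratin filaments, was counted at 9418, 16823 and 15045 in neg, 20382, 18001 and 18669 in sub, 27281, 30669.7 and 28692 in low and 15594, 18202 and 23768 in high, 2.1-fold higher in low (log2 fold change 1.11 ± 0.18, adjusted p 0.000723). Cd151, the tetraspanin that partners alpha 3 and alpha 6 integrins, was counted at 668, 335 and 787 in neg, 131, 127 and 668 in sub, 25.2, 0.85 and 0 in low and 759, 695 and 345 in high. It was 68.6-fold lower in low than in neg (log2 fold change -7.27 ± 1.84, adjusted p 0.0269; edgeR adjusted p 0.29), with the high and neg libraries overlapping and the high libraries all above the low ones (adjusted p 0.697). Low 1 held most of the Cd151 signal in low, so the size of the 68.6-fold depends largely on that library. The call was kept without low 1 (adjusted p 0.00482). In the same low libraries Itga3 and Itga6 had their highest means. No call of this list passed in a fit of only the 2 populations compared, with adjusted p-values of 0.074 in low and 0.0573 in high for Sdc4, 0.16 for Plec and 0.149 for Cd151.

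Of 26 adaptor and focal adhesion genes, all were tested and most did not pass: in low against neg 2 were higher (Tns1 and Fermt1) and 1 lower (Tln1), and in high against neg 1 was higher (Tns1) and 1 lower (Tns2). The shares over all genes were 2.55% higher and 2.15% lower in low, and 2.44% and 2.25% in high, so these counts lie near the background. Tns1, tensin 1, which links beta subunits to actin, was counted at 14133, 10105 and 10447 in neg, 13824, 18356 and 25798 in sub, 21903, 23469.8 and 22479 in low and 28852, 28081 and 29582 in high. It was 1.96-fold higher in low (log2 fold change 0.98 ± 0.17, adjusted p 0.00178) and 2.49-fold higher in high (log2 fold change 1.34 ± 0.17, adjusted p 6.32e-05). The call in low was lost without neg 2, neg 3 or low 3 (adjusted p up to 0.0626). Tns2 was 19.5-fold lower in high than in neg (log2 fold change -4.59 ± 0.95, adjusted p 0.00648), opposite to Tns1. Tln1, the main talin, had means of 8151 ± 1043 in neg and 7620.1 ± 2857 in sub, against 2433 ± 882 in low and 3864 ± 1634 in high (3.35-fold lower in low than in neg, adjusted p 0.00939), a call lost without neg 1, neg 2, neg 3, low 1 or low 3 (adjusted p up to 0.0891). Fermt1, the epithelial kindlin, was counted at 0, 34.2 and 0 in neg, 0.737, 128 and 67.8 in sub, 583, 1577 and 710.1 in low and 223, 212 and 837 in high. Its call in low sat at the threshold (log2 fold change 8.05 ± 2.29, adjusted p 0.0499) and edgeR did not make it (adjusted p 0.278). Neg 2 was the only neg library with Fermt1 above 0, so the log2 fold change depends on it. The call was lost without neg 1, neg 3, sub 3, low 1, low 2, low 3, high 1, high 2 or high 3 (adjusted p up to 0.147). When only the compared pair of populations was fitted, Tns1 passed in high (adjusted p 0.0406), and Tns1 in low (0.113), Tns2 (0.058), Tln1 (0.102) and Fermt1 (0.139) did not.

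**Figure D5:**
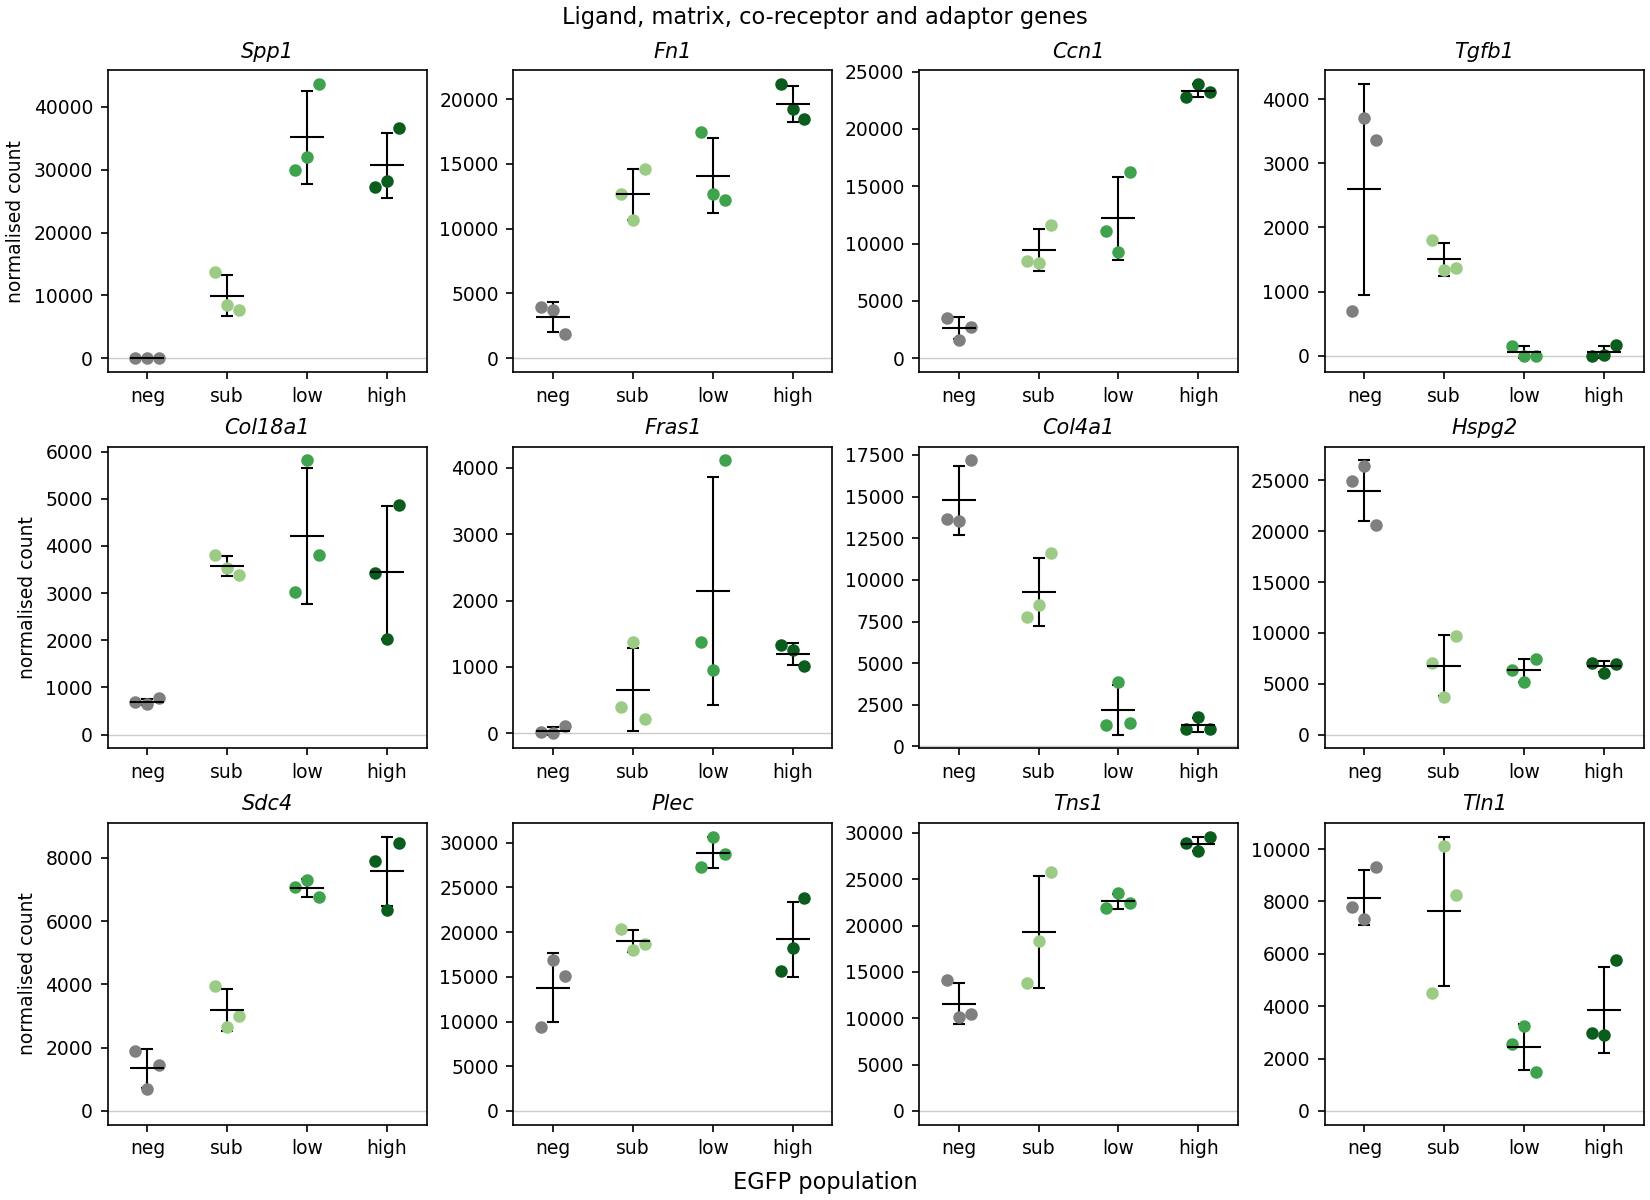
Normalised counts of 12 ligand, matrix, co-receptor and adaptor genes by population; points are libraries, horizontal bars means and vertical lines 1 SD. Spp1, Fn1, Ccn1, Col18a1 and Sdc4 are above their neg values in the EGFP-positive libraries, while Col4a1 and Tgfb1 are near their lowest in low and high.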

How the data were processed

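RNA of sorted cells was isolated with the RNAqueous Micro kit, DNase-treated for 30 min and turned into libraries with a stranded SMARTer kit for very low input, per the labels' protocols. The authors deposited normalised counts, which are 1 signal value for each gene in each library. The submitters' processing notes name Salmon, DESeq2 1.26.0 and mm10 without a role; the annotation, and whether counting used strand, are not given in the sources used here. Dividing each library by its smallest value above 0 gave whole reads (tolerance 0.01 reads) for 100% of its nonzero values, and these were taken as recovered reads. In sub 3 and high 2, 1 read is worth almost 1 (0.997 and 1.01). Their values were not all whole before the division, with Itga1 at 4267.13 in sub 3 and 130.375 in high 2. The labels name no molecular identifiers, so floors of 3 reads cover counting error only.

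Genes with a mean of at least 10 (16128 of 54227) entered limma 3.58.1 in R 4.3.3 (lmFit, eBayes with trend) on log2(normalised count + 1). The fit held 12 libraries and a single term, the population, and gave 6 two-sided contrasts and a moderated F test, adjusted over all genes tested. Where every library of a population had at most 3 reads, a fold was computed against 3 reads in its shallowest library and given as at least; other folds are ratios of means. Log2 fold changes of genes with zeros depend on the pseudocount. Coordinates and transcript lengths are from GENCODE M21 on GRCm38 (also called mm10), matched by symbol, and promoters from RefSeq on GRCm38.p6.

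The settings varied were the pseudocount (0.5 or 5), the filter (none, or a mean of at least 100), the scaling (equal totals or quantiles), a replicate block, the variance trend (none), weights per array, the samples fitted (only the 2 populations compared, or all but 1 library) and the tool (edgeR 4.0.16 quasi-likelihood with TMM, or DESeq2 1.42.0, on recovered reads of all 12 libraries). The symbol rule matched 38 genes, of which 1 is not reported here, nor is 1 marker gene. Values in every library are given for the 18 members that passed in a contrast (9) or had a mean of at least 1000 (15). From each list of partner genes up to 6 that passed are named, by smallest adjusted p. Members, lists and tests were chosen with earlier results of these data known. The fit was tested on simulated data with 200 genes changed, and no result given here rests on that test.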

Additional observations from a re-analysis of the deposited data

How the results depend on the processing

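Each of 17 member calls was refitted under 24 alternatives; 332 of these fits stayed past the threshold, 76 did not, and 0 changed direction. The number of members called in sub against neg (1) was 0 in a fit of only these 2 populations, 2 with a pseudocount of 5 or in DESeq2 and 1 to 3 when a library was left out. In low against sub (0) it was 1 with a pseudocount of 5, no filter, quantile normalisation or edgeR, 2 with a mean of at least 100 or no variance trend, 4 in DESeq2 and 0 to 3 when a library was left out. In high against low (0) it was 1 without the trend, 3 in DESeq2 and 0 to 1 when a library was left out. In low against neg (9) it was 5 without the trend or in edgeR, 13 in DESeq2, 2 with only these 2 populations and 4 to 9 when a library was left out. In high against neg (6) it was 2 with only these 2 populations, 10 in DESeq2 and 4 to 6 when a library was left out. In high against sub (1) it was 0 with a pseudocount of 0.5, no filter or only these 2 populations, 2 with a pseudocount of 5, quantile normalisation, no trend or edgeR, 3 with a mean of at least 100, 7 in DESeq2 and 0 to 4 when a library was left out. The F test count (8) was 5 without the trend and 5 to 8 when a library was left out. The causes were not tested.

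Libraries with the same number share a suffix in their descriptions across the 4 populations, which the labels do not explain. The main fit did not pair libraries by number. Over the 18 same-numbered pairs the correlation of deviations from the population means ran from -0.016 to 0.027, with a mean of 0.0088. Over the 36 different-numbered pairs it ran from -0.045 to 0.023, so no pair of either kind reached 0.1. Still, 8 of 12 libraries correlated best with their own number, more than unrelated numbering would give on average. Correlations this small cannot decide whether same-numbered libraries are pairs. With the replicate number as a block the counts were 1, 0, 0, 9, 6 and 1 in the order above, and 7 in the F test. Rescaling to equal totals or by quantiles moved the median of all genes by at most 0.041 on the log2 scale. The median gene tested had a standard error of 2.35 on the log2 scale. At a like spread, Lama2 in low against sub, with a log2 fold change of -9.09 ± 2.26, did not pass in limma (adjusted p 0.0716), so differences of several standard errors could go uncalled.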
